A study of Mus musculus with 35 samples.

Results

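KLF4 binding and histone H3 lysine 27 acetylation (H3K27ac) were set against each other in mouse embryonic stem cells (ESC) grown in serum and LIF. A KLF4 region was a merged interval of the peak lists of the 2 serum ESC libraries, overlapped by both lists, on chromosomes 1 to 19 and X, and an H3K27ac region was built in the same way from the 2 ESC H3K27ac lists. There were 16505 KLF4 regions, of 85740 intervals that the 10 KLF4 lists of the series gave when merged, and 55022 H3K27ac regions, of 179334 from the 12 H3K27ac lists. KLF4 regions were split by H3K27ac peaks in both ESC libraries (11175 regions, called acetylated here), in 1 of them (1424) or in none (3906, called unacetylated). H3K27ac regions were split by KLF4 peaks in both serum ESC libraries (11208, called bound), in 1 (8954) or in none (34860, called unbound). These overlaps made the classes, so they are given as a description.

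KLF4 is a zinc-finger transcription factor that binds GC-rich CACCC-type elements and belongs, with KLF2 and KLF5, to the network that keeps mouse ESC in the naive state. H3K27ac is laid down by the acetyltransferases p300 and CBP and marks active promoters and enhancers. A factor can also sit on DNA whose nucleosomes lack the mark, at silenced, poised or otherwise inactive sites. Inhibition of MEK and GSK3, the condition called 2i, holds ESC in a more uniform naive state than serum does.

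The ESC came from line V6.5 (C57BL/6 x 129), unsorted and grown on irradiated feeder cells with 1000 U/ml LIF, and all ESC libraries thus stand for 1 line. The KLF4 libraries in 2i had in addition 1 µM MEK inhibitor and 3 µM GSK3 inhibitor. The other libraries came from embryonic fibroblasts (MEF) of the same strain background with a polycistronic cassette for OCT4, KLF4, SOX2 and MYC (OKSM) in the Col1a1 locus and the transactivator M2rtTA in Rosa26. MEF were unsorted and grown in MEF medium with no doxycycline. Reprogramming cells were grown in the medium of the serum ESC, LIF included, with ascorbic acid (50 µg/ml) and doxycycline (1 µg/ml), and were unsorted on day 3 and sorted for the marker labelled SSEA+ on days 6 and 9. KLF4 had 2 libraries each on day 3, day 6, day 9, in serum ESC and in 2i, and H3K27ac had 2 in MEF, 3 on day 3, 3 on day 6, 2 on day 9 and 2 in ESC. Nothing in the labels says that libraries of a group came from separate cultures, so p-values measure only the spread between these libraries.

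The lists held 21129 and 34640 KLF4 peaks in serum ESC (batches EA-2697 and EA-2643), and 81971 and 81231 H3K27ac peaks in ESC (batch DG-3458). The other KLF4 lists held 22525 to 34404 peaks and the other H3K27ac lists 17493 to 88347. The files give no read numbers, so depth is unknown, and where no peak was called, signal below the threshold may still be present. H3K27ac peaks lay at 8 of 8 pluripotency markers in both ESC libraries, with a summed length of 165 and 162 kb. MEF had peaks at 4 and 5 of these 8, with 11.2 and 10.3 kb. Of 10 fibroblast markers 5 and 4 had a peak in the ESC libraries, with 2.86 and 1.36 kb in all. MEF had peaks at 10 of 10 with 96.3 and 97.6 kb. Col1a2, Col3a1, Thy1, Postn and Dcn had none in either ESC library. For comparison, 65.2% of all protein-coding genes had an H3K27ac region of both ESC libraries in the gene or within 2.5 kb. No such share is given for MEF. The part of feeder cells in the ESC lists was not tested.

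Promoters of genes that carried acetylated KLF4 regions are shown first, because the factor's own recognition element can be read in them. The RefSeq windows (GRCm38.p6) run from 250 bases before to 50 after a gene start. Capitals mark matches to GGGNGTGG, a KLF-type element, or to its reverse complement on the printed strand. In the first 6, an acetylated KLF4 region overlapped the window and both 2i libraries had a KLF4 peak there. Klf4 is an example without a match, and Alkbh1 has H3K27ac and no KLF4. The examples were chosen after their matches were seen, so their number of matches does not stand for the class. Tcl1, another naive gene with acetylated KLF4 and both 2i libraries at its window, had no match and is not printed.
Pou5f1, chr17:35505782-35506081, plus strand: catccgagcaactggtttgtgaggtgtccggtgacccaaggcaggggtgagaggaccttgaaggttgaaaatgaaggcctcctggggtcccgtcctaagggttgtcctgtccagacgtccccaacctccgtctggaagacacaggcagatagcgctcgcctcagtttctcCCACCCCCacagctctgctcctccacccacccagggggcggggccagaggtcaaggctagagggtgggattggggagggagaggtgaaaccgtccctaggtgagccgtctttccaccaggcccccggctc
Nanog, chr6:122707239-122707538, plus strand: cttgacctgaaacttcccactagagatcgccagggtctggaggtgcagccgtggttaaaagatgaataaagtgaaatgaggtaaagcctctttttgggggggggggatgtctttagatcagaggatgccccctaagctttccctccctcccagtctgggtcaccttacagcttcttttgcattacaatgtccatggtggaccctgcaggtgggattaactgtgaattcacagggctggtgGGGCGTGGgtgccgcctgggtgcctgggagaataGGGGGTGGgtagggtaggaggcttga
Tfcp2l1, chr1:118627695-118627994, plus strand: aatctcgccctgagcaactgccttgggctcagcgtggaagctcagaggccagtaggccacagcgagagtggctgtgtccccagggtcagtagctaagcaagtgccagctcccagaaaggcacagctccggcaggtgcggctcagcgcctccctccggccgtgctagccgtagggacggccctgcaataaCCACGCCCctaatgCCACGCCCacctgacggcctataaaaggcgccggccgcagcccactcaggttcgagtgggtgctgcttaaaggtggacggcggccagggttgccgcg
Nr5a2, chr1:136953581-136953880, minus strand: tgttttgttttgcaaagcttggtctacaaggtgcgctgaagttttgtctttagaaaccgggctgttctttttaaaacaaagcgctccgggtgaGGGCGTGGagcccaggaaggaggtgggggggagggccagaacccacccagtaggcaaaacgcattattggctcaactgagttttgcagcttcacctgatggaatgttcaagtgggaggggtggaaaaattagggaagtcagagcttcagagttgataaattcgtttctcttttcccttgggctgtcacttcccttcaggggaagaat
Zfp42, chr8:43306960-43307259, minus strand: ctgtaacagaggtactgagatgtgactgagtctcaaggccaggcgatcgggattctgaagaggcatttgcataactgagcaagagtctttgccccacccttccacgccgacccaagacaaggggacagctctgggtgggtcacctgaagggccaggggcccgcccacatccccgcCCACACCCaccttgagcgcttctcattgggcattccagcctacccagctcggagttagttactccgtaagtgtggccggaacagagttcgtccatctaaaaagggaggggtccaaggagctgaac
Ass1, chr2:31470020-31470319, plus strand: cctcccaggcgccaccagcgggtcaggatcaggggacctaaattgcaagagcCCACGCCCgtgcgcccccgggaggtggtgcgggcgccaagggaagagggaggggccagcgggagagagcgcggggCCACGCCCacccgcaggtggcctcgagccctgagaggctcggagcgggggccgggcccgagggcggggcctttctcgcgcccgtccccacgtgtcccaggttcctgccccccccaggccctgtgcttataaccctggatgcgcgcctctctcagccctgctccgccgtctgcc
Klf4, chr4:55532426-55532725, minus strand: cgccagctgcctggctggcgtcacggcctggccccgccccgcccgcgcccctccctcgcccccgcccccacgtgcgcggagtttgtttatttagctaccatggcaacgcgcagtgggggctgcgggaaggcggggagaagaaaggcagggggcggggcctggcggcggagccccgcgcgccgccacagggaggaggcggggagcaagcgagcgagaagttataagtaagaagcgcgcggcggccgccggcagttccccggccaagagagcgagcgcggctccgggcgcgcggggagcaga
Alkbh1, chr12:87443790-87444089, minus strand: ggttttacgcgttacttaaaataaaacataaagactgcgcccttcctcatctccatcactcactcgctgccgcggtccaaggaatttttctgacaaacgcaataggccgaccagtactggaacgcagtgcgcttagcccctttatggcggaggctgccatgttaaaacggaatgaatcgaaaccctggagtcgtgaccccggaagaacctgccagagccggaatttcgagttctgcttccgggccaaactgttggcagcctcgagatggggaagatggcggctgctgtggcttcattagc

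Nanog and Tfcp2l1, 2 regulators of the naive state, had 2 matches each, and so had Ass1, the argininosuccinate synthase gene. Pou5f1, Nr5a2 and Zfp42 had 1 each. The Klf4 window had none although KLF4 peaks of 6.55-fold and 4.19-fold enrichment covered it. Across 21044 promoter windows 19.6% held the element. The share was 33.1% of 3761 windows under acetylated KLF4 regions, 41.4% of 307 under unacetylated KLF4 regions, 16.4% of 3674 under unbound H3K27ac regions and 14.8% of 9883 with neither mark. Windows under KLF4 thus held it more often with or without acetylation than windows with H3K27ac alone. Median GC content was 66.0%, 64.3%, 59.0% and 49.3% in the same order, and its part in these shares was not tested. The AP-1 element TGACTCA was in 2.79%, 2.93%, 2.48% and 6.67%, against 4.69% of all windows. The octamer ATTTGCAT was in 1.28%, 1.63%, 1.74% and 1.98%, and TCAAGGTCA, an element of estrogen-related receptors such as ESRRB, in 0.106%, 0 of 307 windows, 0.408% and 0.425%. All motifs were read on both strands, and none of the shares was tested.

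Most KLF4 regions of serum ESC were acetylated. H3K27ac peaks overlapped 72.8% of the 16505 regions in one ESC library and 71.2% in the other, and 67.7% in both, against 4.25% when the peaks were moved by 1 Mb. The unacetylated class was 23.7%. In the opposite direction, KLF4 reached a minority of the acetylated sites. The serum library with 21129 peaks overlapped 22.5% of the 55022 H3K27ac regions, the library with 34640 peaks 34.5%, and both 20.4%, against 1.36% after the move. Of the bound H3K27ac regions 85.6% held 1 KLF4 region, 9.99% held 2 and 1.98% held at least 3. The bound share was 34.5% without the serum library of batch EA-2697, 13.5% and 13.6% without the first or second ESC H3K27ac library, and 12.8% with an overlap of 50% of the shorter interval. It was 42.8% with equal numbers of top peaks and 10.5% with peaks cut about their midpoints. The acetylated share of KLF4 regions depended on how much overlap was asked for: it was 40.02% when 50% of the shorter interval had to be shared, and 27.9% when peaks were cut to 200 bp (KLF4) and 500 bp (H3K27ac) about their midpoints.

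Bound H3K27ac regions were wide. Their median width was 1527 bp, against 1022 bp with KLF4 in 1 library and 667 bp for the unbound. Both KLF4 libraries had a peak in 5.16% of H3K27ac regions under 500 bp, 11.8% from 500 to 1000 bp, 27.6% from 1000 to 2000 bp, 50.2% from 2000 to 4000 bp and 78.4% of those wider still. A wide interval has more room for a peak, and that part was not tested. Median fold enrichment of H3K27ac, the authors' value for each peak, was 10.2 and 9.67 at bound regions in the ESC libraries and 4.37 and 4.07 at unbound ones. KLF4 regions differed less: median width was 354 bp for acetylated, 275 bp for the intermediate class and 253 bp for unacetylated regions, and median KLF4 fold was 4.26 and 3.60 against 3.86 and 3.05. These values come from the libraries that made the classes and were not tested.

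Acetylated KLF4 regions lay nearer to gene starts than unacetylated ones did. Midpoints of acetylated regions were at a median of 3.14 kb from the nearest protein-coding gene start (or gene end where no start was known). Of these regions 48.5% were within 2.5 kb of it. All distances to a gene start are to this point, so a region more than 2.5 kb from one can lie inside a gene. Unacetylated KLF4 regions lay at a median of 21.3 kb with 18.4% within 2.5 kb. Regions moved by 1 Mb gave 7.60% and 7.30%. More than 50 kb away lay 14.9% of the acetylated and 30.1% of the unacetylated regions. Of the acetylated regions 38.0% had their midpoint within 0.5 kb, against 10.4% of the unacetylated. The H3K27ac regions split in the same way, with medians of 3.86 kb for bound and 16.7 kb for unbound, and 46.9% against 19.8% within 2.5 kb. The 1424 KLF4 regions with H3K27ac in 1 library fell between the classes, at 15.9 kb and 25.9%.

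**Figure D1:**
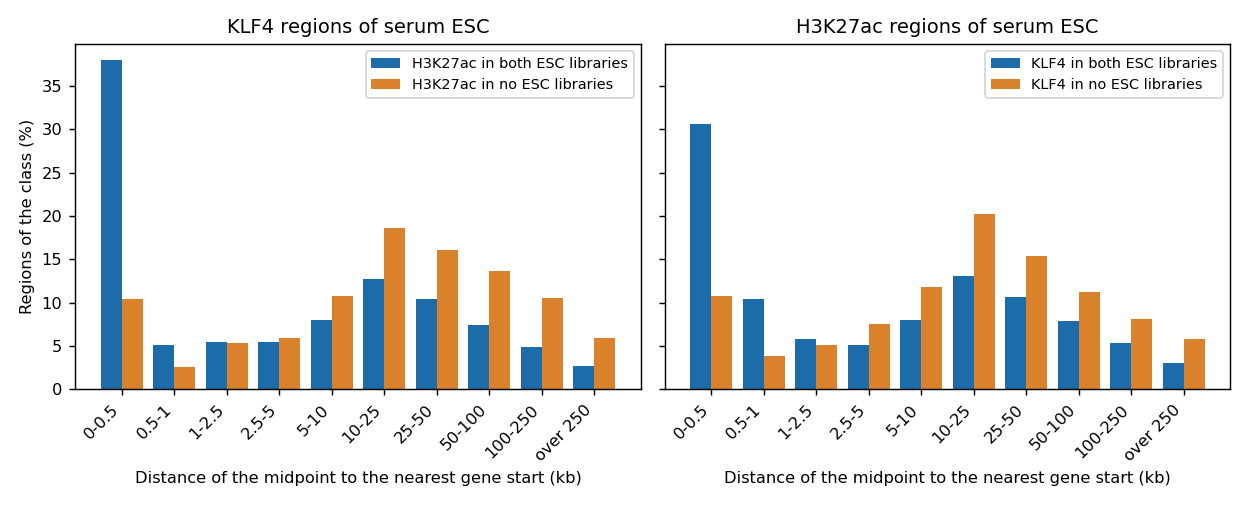
Share of regions (%) by distance of the midpoint to the nearest protein-coding gene start (kb), for KLF4 regions split by ESC H3K27ac (left) and H3K27ac regions split by ESC KLF4 (right). Bars of the acetylated KLF4 class are highest within 0.5 kb, at 38.0%, where the unacetylated class has 10.4%.

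Genes that run the naive network carried KLF4 on acetylated chromatin. Of 20 naive and core pluripotency regulators 15 had an acetylated KLF4 region in the gene or within 2.5 kb of it, against 30.6% of 21627 protein-coding genes, and 18 had a KLF4 region of any class, against 38.3%. Esrrb, a nuclear receptor of the network, had 8 acetylated regions and 61.5 kb of H3K27ac. Tfcp2l1 had 6, Tbx3 and Nr5a2 had 4 each, and Sall4 and Dppa5a had 3 each. Pou5f1, the gene of OCT4, had 2, the strongest of which (chr17:35503791-35504384, 594 bp) had 10.5-fold and 10.4-fold KLF4 enrichment in the serum libraries, and 3.53-fold and 12.003-fold in 2i. At Nanog the single region (chr6:122707290-122707642) overlapped the promoter printed above, with 9.61-fold and 4.57-fold in serum and 5.20-fold and 5.70-fold in 2i. At Tfcp2l1 the strongest region (chr1:118647978-118648411) lay inside the gene, with 16.4-fold and 6.23-fold. Sox2, whose region lay downstream of the gene, had 5.78-fold and 4.59-fold in serum and a peak in 1 of the 2i libraries, at 3.01-fold.

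Of the 5 naive genes outside this count, Nr0b1, Dppa3 and Tet1 had a KLF4 region with H3K27ac in 1 ESC library. Klf2 and Prdm14 had no KLF4 region there, although each had an H3K27ac region and a KLF4 peak in both 2i libraries. Both 2i libraries had a KLF4 peak at 18 of the 20 genes, against 44% of all genes. No naive gene had only unacetylated KLF4 regions, against 5.38% of all genes, and none had H3K27ac without KLF4 in either library, against 16%. The lists were put together with earlier results of these data known, so their counts are descriptions. With the peaks cut about their midpoints 1 of the 20 genes had an acetylated region, and 8 of the 14 genes with a known start had one within 2.5 kb of it. No share over all genes is given for these settings, and the 30.6% above is for another measure.

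Of 18 genes of the LIF, BMP, WNT, FGF and Nodal pathways, signals that act on ESC, 14 had an acetylated KLF4 region, against 30.6% of all genes. Etv5, an FGF-responsive ETS factor, had 8, Socs3, the feedback inhibitor of LIF signalling, had 3 and Lifr, the LIF receptor gene, had 3. Nodal, the gene of a TGF-beta family ligand, had 2 acetylated regions. The stronger was wide (1344 bp, chr10:61415693-61417036) and had 22.1-fold and 9.08-fold in serum and 10.7-fold and 10.6-fold in 2i. Dusp6, an ERK phosphatase, had an acetylated region of 3.28-fold and 2.95-fold in serum and no KLF4 peak in 2i. Id1, a BMP target, was the single gene of this list with KLF4 regions that were all unacetylated. It had 2, the stronger of them (chr2:152739151-152739659) with 5.49-fold and 3.81-fold in serum and 5.13-fold and 5.22-fold in 2i. Axin2, Lefty1 and Lefty2 had no KLF4 region of both libraries.

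Of 12 epithelial genes 9 had an acetylated KLF4 region, against 30.6% of all genes. Of the others, Cldn7 and Esrp1 had a KLF4 region with H3K27ac in 1 ESC library, and Ocln had no KLF4 region of both libraries. Cdh1, the gene of E-cadherin, had 8 acetylated regions and 39.3 kb of H3K27ac, and Cldn4, a tight-junction gene, had 4, the strongest at 15.8-fold and 7.76-fold. Grhl2, an epithelial transcription factor, had 1 acetylated region of 15.8-fold and 13.0-fold (chr15:37289698-37290122) and 1 unacetylated region. The list's genes are long, with a median of 31.2 kb against 17.3 kb for all genes. Median length was 9.54 kb in the naive list and 37.0 kb in the list of fibroblast markers given below. The part of gene length in these counts was not tested. Of 20 ubiquitous genes 10 had an acetylated region, against 30.6% of all genes, among them Ppia with 27.3-fold and 14.8-fold. All 20 had an H3K27ac region, against 65.2% of all genes. Of these, 5 (25%) had H3K27ac without KLF4 in either serum ESC library, against 16% of all genes. Rps18 was the only ribosomal protein gene of the list in the acetylated KLF4 class, which held 30.6% of all genes. Ribosomal protein genes were not a list of their own, and their share was not tested.

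Lineage and fibroblast genes seldom carried acetylated KLF4. Of 18 lineage regulators 2 had an acetylated KLF4 region, Gata3 among them, and of 16 fibroblast markers 1, Lum, against 30.6% of all genes. An unacetylated KLF4 region was at 4 genes of the lineage list and 3 of the fibroblast list, against 9.57% of all genes, and an unbound H3K27ac region at 10 and 6, against 45.9%. Unacetylated KLF4 regions with no acetylated one were present at 3 lineage genes (Pax6, Sox1 and Neurog1), 3 fibroblast genes (Col1a1, Loxl2 and Tgfbi) and 2 of 11 formative genes (Dnmt3a and Cdh2), against 5.38% of all genes. Neurog1, the gene of a proneural factor, had 1 unbound H3K27ac region, of 0.636 kb. Its unacetylated KLF4 region (chr13:56252114-56252599) had 9.63-fold and 7.25-fold enrichment in serum and 5.69-fold and 8.04-fold in 2i. These values are in the range of the naive genes. Of the formative and primed genes 4 of 11 (36.4%) had an acetylated KLF4 region (Otx2, Pou3f1, Dnmt3b and Zic2), near the 30.6% of all genes, and Fgf5 had neither mark.

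**Figure D2:**
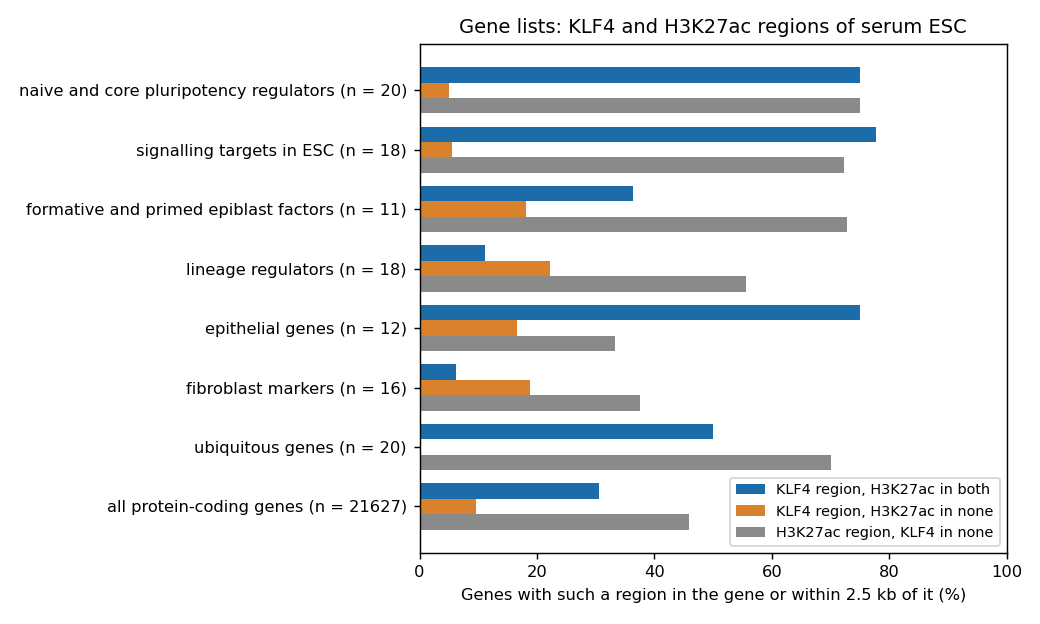
Share of the genes of each list (%) with a KLF4 region with H3K27ac in both ESC libraries, a KLF4 region with none, or an H3K27ac region with no KLF4, in the gene or within 2.5 kb of it. Naive, signalling and epithelial genes reach 75%, 77.8% and 75% for acetylated KLF4, and all protein-coding genes 30.6%.

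The strongest regions of each class were not alike in gene distance. For acetylated KLF4 these were an interval 33.0 kb from Grap (chr11:61619814-61620792, 48.3-fold and 18.01-fold), the promoter of Ass1 (chr2:31469762-31470357, 39.0-fold and 13.9-fold) and an interval inside the kinase gene Src (chr2:157456908-157457852, 29.1-fold and 14.0-fold). All 3 had KLF4 peaks in the 8 other KLF4 libraries. For unacetylated KLF4 they were an interval inside Map3k6 (chr4:133250507-133251532, 23.1-fold and 16.9-fold), one inside Grin1, an NMDA receptor gene (chr2:25292689-25293274, 30.1-fold and 13.8-fold), and one 1713.9 kb from Cntnap5a (chr1:113970623-113971057, 23.1-fold and 13.0-fold). The intervals in Map3k6 and Grin1 had KLF4 in all 8 other libraries and no H3K27ac peak in MEF or on day 9. High KLF4 enrichment thus occurred without a called H3K27ac peak. The Cntnap5a interval had a KLF4 peak in 1 of the 2i libraries, at 4.09-fold, and in no library of days 3 to 9. Among unbound H3K27ac regions the strongest lay at the starts of Alkbh1 (53.2-fold and 49.6-fold), Psenen (47.9-fold and 42.6-fold) and Polr2m (56.0-fold and 46.7-fold). All 3 had H3K27ac in both MEF and both day 9 libraries. So had the 3 acetylated KLF4 regions above and the 3 strongest bound H3K27ac regions named below. Psenen and Polr2m had KLF4 peaks in both 2i libraries, at 2.81-fold to 4.74-fold, and Alkbh1 in none. Among bound H3K27ac regions the strongest were intervals 125 kb from Mid1 (12996 bp wide, 26.2-fold and 22.4-fold H3K27ac), 8.46 kb from Ypel4 (58.2-fold and 51.5-fold) and 32.8 kb from Zfp169 (63.2-fold and 49.9-fold). The strongest bound regions thus lay away from gene starts and the strongest unbound ones at them, the reverse of the order of the class medians.

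KLF4 in 2i was read at the same regions in libraries that had no part in the classes. A KLF4 peak was present at 73.8% of the acetylated KLF4 regions in the 2i library of batch EA-3702 and at 76.3% in that of batch DG-3012. At unacetylated regions it was 51.3% and 51.6%, and at the intermediate class 56.3% and 60.3%. The difference was 23.7 ± 1.58 percentage points (SD, n = 2) and had the same direction in both libraries, a number for which a sign test cannot pass the threshold. Moved peaks gave 1.35% and 1.08%. Both 2i libraries had a peak at 7161 acetylated regions (64.1%) and 1492 unacetylated ones (38.2%), against 56.3% of all KLF4 regions, and neither had one at 13.9% and 35.4%. Bound H3K27ac regions had KLF4 in 2i at 77.1 ± 1.72% (SD, n = 2), unbound ones at 9.05 ± 1.83%. The difference between acetylated and unacetylated KLF4 regions was 13.4 points in the top of 3 equal groups by KLF4 score and 11.1 with peaks cut about their midpoints.

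Reprogramming cells, whose KLF4 includes that of the cassette, gave the same direction. On day 3 the acetylated regions had KLF4 at 66.7% and 55.7% and the unacetylated at 44.1% and 38.3%. On day 6 the shares were 65.7% and 61.9% against 43.4% and 49.0%, and on day 9 64.2% and 66.8% against 49.5% and 51.8%. Every library of days 3 to 9 and of 2i, 8 of 8, was higher at acetylated regions, and no library's share at unacetylated regions reached the lowest share at acetylated ones. The mean difference was 19.03 ± 4.54 percentage points (SD, n = 8; two-sided permutation test, exact over 256 labelings, p = 0.00781, the smallest they can give; adjusted p = 0.0100 over 9 tests). By library it ranged from 12.9 to 24.8 points. The mean was 9.01 points with peaks cut about their midpoints, 9.64 in the top of 3 equal groups by KLF4 score and 9.63 at regions more than 2.5 kb from a gene start. Both libraries of a stage had a peak at 51.7% of acetylated and 32.2% of unacetylated regions on day 3, against 45.7% of all KLF4 regions, at 54.5% and 36.4% on day 6, against 48.9%, and at 60.1% and 44.4% on day 9, against 55.2%. Some regions had KLF4 in both libraries of days 3, 6 and 9 and of 2i. These were 31.5% of the acetylated, 12.6% of the intermediate and 9.50% of the unacetylated class. No library of days 3 to 9 had a peak at 17.2%, 27.6% and 28.6% in the same order.

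**Figure D3:**
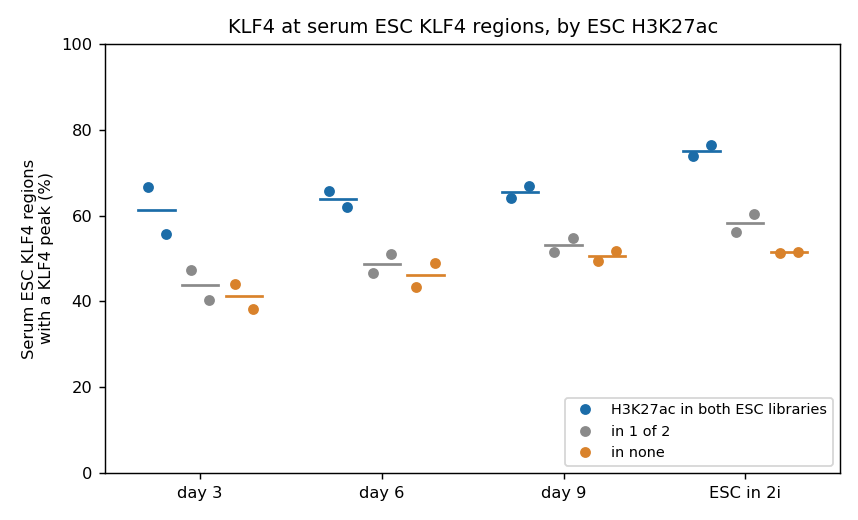
Share of serum ESC KLF4 regions (%) with a KLF4 peak in each library of days 3, 6 and 9 and of ESC in 2i, by H3K27ac in both ESC libraries, in 1 or in none. Points are libraries and lines are means of 2. Acetylated regions range from 55.7% to 76.3% and unacetylated ones from 38.3% to 51.8%.

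KLF4 peaks at acetylated regions were also wider and higher in rank in those 8 libraries. Both values were read only at regions with a peak in the library. Median peak width was 326 to 562 bp at acetylated and 254 to 420 bp at unacetylated regions, and the ratio within a library was 1.11 to 1.42. The mean log2 difference was 0.31 ± 0.12 (SD, n = 8; two-sided exact permutation test, p = 0.00781, adjusted p = 0.0100), higher in 8 of 8 libraries. The median percentile of the score within a list differed by 7.05 ± 4.74 points (SD, n = 8; exact permutation test, p = 0.00781, adjusted p = 0.0100), from 0.409 on day 6 of batch DG-4040 to 13.3 on day 6 of batch EA-3702. Both libraries of batch DG-4040 were low, at 0.992 on day 3 and 0.409 on day 6. Those of batches EA-3702 and DG-3012 had 5.82 to 13.3. The mean score difference was 3.72 points with a q-value limit of 0.01 and 2.59 with the top 50% of each list. With an overlap of 50% of the shorter interval it was 2.47 (exact permutation test, p = 0.109).

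The excess of 2i over the reprogramming days had opposite signs near gene starts and farther away, a contrast between strata that was not itself tested. Over all regions the difference was 6.19 points larger in 2i than on days 3 to 9 (two-sided permutation test, exact over 28 labelings, p = 0.143, adjusted p = 0.161, smallest possible 0.0357), and the F between the 4 stages was 1.87 (exact permutation test, p = 0.257, adjusted p = 0.257). In the top of 3 equal groups by KLF4 score the F was 59.8 (exact permutation test, p = 0.00952). It was 1.24 in the middle group (exact permutation test, p = 0.476) and 0.661 in the lowest (exact permutation test, p = 0.686). Over all regions, leaving out 1 library at a time gave an F of 0.847 without the 2i library of batch DG-3012 to 7.16 without the day 6 library of batch EA-3702. The excess in 2i was 3.28 points with a q-value limit of 0.01, 3.78 with equal numbers of top peaks and 2.78 with peaks cut about their midpoints. Without the day 3 library of batch EA-3702 the 2i value was 7.22 (exact permutation test, p = 0.0476). Within batch EA-3702, the one batch with 2i and all 3 days, the difference over all regions was 22.6 points in 2i, 22.6 on day 3, 22.3 on day 6 and a mean of 14.8 on day 9, so that 2i did not exceed day 3 there. Of the KLF4 regions, 5754 acetylated and 3188 unacetylated ones lay more than 2.5 kb from a gene start. There the 2i libraries had KLF4 at 61.7% and 71.6% of acetylated and 46.5% and 48.8% of unacetylated regions, a difference of 15.2 and 22.8 points. The 6 libraries of days 3 to 9 differed by 5.23 to 8.64 points, with means of 50.8% and 44.3%. Distal differences of 2i and of the days did not overlap, and were 12.5 points apart (two-sided exact permutation test, p = 0.0357, the smallest possible, not adjusted). The F between the 4 stages at these regions was 9.68 and did not pass (exact permutation test, p = 0.0571). This split of the 2i comparison was chosen after the data were seen. Within batch EA-3702 alone 2i had 15.2 points, day 3 8.64, day 6 7.08 and day 9 5.82 and 5.61.

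Near gene starts the order was the other way round. Within 2.5 kb of one, 5421 acetylated and 718 unacetylated regions differed by 14.4 and 17.5 points in 2i and by 19.6 to 28.8 points on days 3 to 9 (2i minus days, -7.36 points, exact permutation test, p = 0.0714). The unacetylated regions near gene starts had KLF4 in 2i at 72.3% and 63.9%, and on days 3 to 9 at 53.7 ± 5.21% (SD, n = 6). The acetylated ones were at 86.6% and 81.4% in 2i and at 77.0 ± 7.04% on days 3 to 9. Both classes near gene starts were thus bound more often in 2i by their means, the unacetylated class by the larger margin. On day 9 the distal acetylated and unacetylated regions were at 55.4 ± 1.16% and 49.6 ± 1.31% (SD, n = 2), so that H3K27ac of ESC separated them little at that stage.

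**Figure D4:**
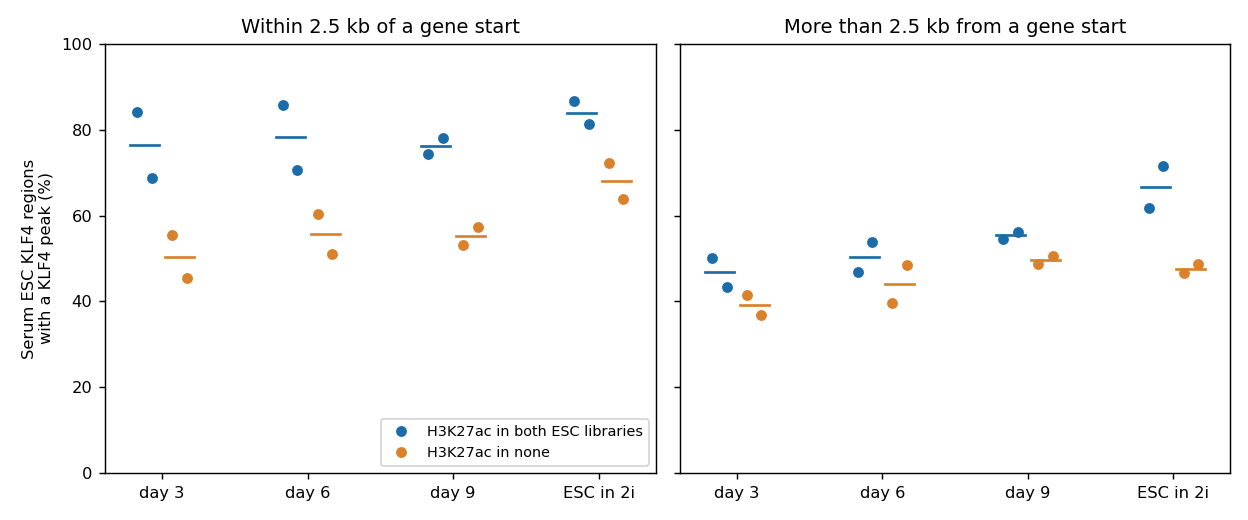
Share of serum ESC KLF4 regions (%) with a KLF4 peak in each library, for regions within 2.5 kb of a gene start (left) and farther away (right), by H3K27ac in both or in no ESC library. Points are libraries and lines are means of 2. More than 2.5 kb from a start the classes differ by 5.23 to 8.64 points on days 3 to 9 and by 15.2 and 22.8 points in 2i.

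H3K27ac of other stages followed KLF4 of ESC. At bound H3K27ac regions MEF had an H3K27ac peak in 59.2% and 59.1%, and at unbound ones in 26.6% in each library. Day 3 libraries had 54.6% to 61.2% against 17.6% to 22.6%, day 6 libraries 45.4% to 55.6% against 9.93% to 14.8%, and day 9 libraries 78.2% and 79.5% against 30.3% and 31.2%. All 10 libraries were higher at bound regions, with no overlap within a stage between the classes. Peaks moved by 1 Mb gave 2.19% to 11.1% at bound regions, which are wider, and 1.15% to 6.95% at unbound ones. The mean difference was 38.8 ± 5.53 percentage points (SD, n = 10; two-sided permutation test, exact over 1024 labelings, p = 0.00195, the smallest they can give; adjusted p = 0.00586). It was 9.58 points with equal numbers of top peaks in each list, 21.9 with the top 50% of each list and 25.1 at regions more than 2.5 kb from a gene start. In 3 equal groups by region width, from narrow to wide, the mean difference was 34.0, 36.2 and 28.8 points. For MEF alone it was 38.2, 33.2 and 19.9 points. The part of region width was not tested. Both MEF libraries had a peak at 57.7% of bound and 24.8% of unbound regions, against 35.1% of all H3K27ac regions, and both day 9 libraries at 76.1% and 27.3%, against 42.4%. No H3K27ac peak in any of the 10 libraries was found at 14.4% of bound and 55.1% of unbound regions. H3K27ac peaks at bound regions were wider in 10 of 10 libraries, by a log2 difference of 0.46 ± 0.06 (SD, n = 10), and higher in score percentile by 13.1 ± 2.84 points, each with an adjusted p = 0.00586 in the exact permutation test. The score difference was 6.39 points with a q-value limit of 0.01, 3.52 with the top 50% of each list and 2.42 with equal numbers of top peaks. The width difference was 0.27 and 0.29 on the log2 scale under the last 2 of these settings.

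The difference varied between stages. It was 32.5 ± 0.134 points in MEF (SD, n = 2), 37.7 ± 0.863 on day 3 (SD, n = 3), 37.8 ± 2.69 on day 6 (SD, n = 3) and 48.1 ± 0.372 on day 9 (SD, n = 2), with an F of 32.0 (two-sided permutation test, exact over 25200 labelings, p = 0.00302, adjusted p = 0.00679). The F was 16.3 and 17.4 without one or the other day 9 library, 53.4 without the second day 6 library of batch DG-3458, 141 without the day 6 library of batch EA-3702 and 110 with equal numbers of top peaks. Day 3 and day 6 did not differ beyond their spread. Batch DG-3458 gave 32.5 in MEF, 37.2 on day 3 and 36.4 on day 6, and batch EA-3702 38.7 on day 3, 40.8 on day 6 and 48.1 on day 9. MEF and day 9 were in different batches, so their direct comparison cannot be told apart from the batch. More than 2.5 kb from a gene start, day 9 H3K27ac covered 65.8 ± 1.15% of bound and 21.7 ± 0.435% of unbound regions, and MEF H3K27ac 31.7 ± 0.143% and 16.7 ± 0.0354% (SD, n = 2 each). Within 2.5 kb the shares were 93.7 ± 0.713% and 67.3 ± 1.14% on day 9 and 90.3 ± 0.0673% and 66.9 ± 0.277% in MEF. Distal bound regions were thus covered by day 9 peaks more often than by MEF peaks, while shares near gene starts were close. The order of the stages was not the same in the 2 strata, a contrast that was not tested. Within 2.5 kb the mean difference was 23.4 ± 0.344 points in MEF (SD, n = 2), 30.8 ± 1.19 on day 3 (SD, n = 3), 35.8 ± 0.854 on day 6 (SD, n = 3) and 26.4 ± 0.425 on day 9 (SD, n = 2), so day 6 was highest there. Farther away it was 15.03 ± 0.107, 23.4 ± 1.47, 20.9 ± 4.62 and 44.1 ± 0.717 in the same order, with day 9 highest.

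**Figure D5:**
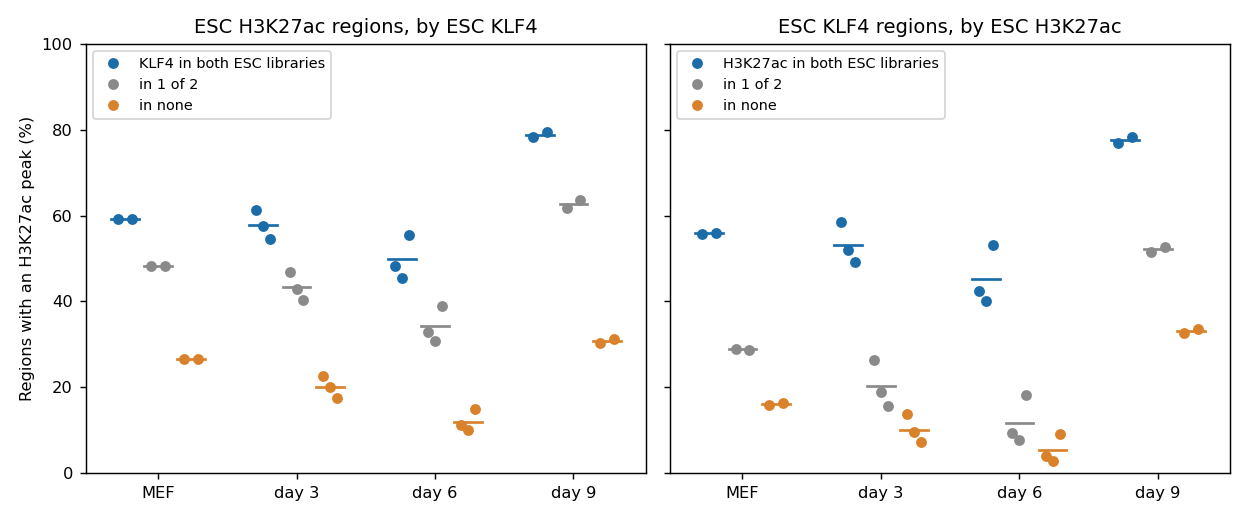
Share of regions (%) with an H3K27ac peak in each library of MEF and of days 3, 6 and 9, for ESC H3K27ac regions by ESC KLF4 (left) and for ESC KLF4 regions by ESC H3K27ac (right). Points are libraries and lines are means. Bound H3K27ac regions range from 45.4% to 79.5% and unbound ones from 9.93% to 31.2%.

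KLF4 regions that lacked H3K27ac in ESC were not all without it elsewhere. H3K27ac peaks were present at 16.0 ± 0.308% of them in MEF (SD, n = 2), 10.1 ± 3.28% on day 3 (SD, n = 3), 5.29 ± 3.29% on day 6 (SD, n = 3) and 33.1 ± 0.724% on day 9 (SD, n = 2). Acetylated regions had means of 55.8%, 53.2%, 45.2% and 77.6% in the same order, and peaks moved by 1 Mb gave 5.93%, 2.24%, 1.22% and 3.17% at the unacetylated ones. Both day 9 libraries had a peak at 1114 of the 3906 (28.5%), against 61.2% of all KLF4 regions and 74.6% of the acetylated ones. Where KLF4 was in both day 9 libraries too, 870 of 1734 (50.2%) had it, and where KLF4 was in neither, 128 of 1683 (7.61%). For acetylated regions these shares were 91.3% of 6713 and 40.8% of 3249. No H3K27ac peak in any of the 10 other libraries was found at 2112 of the unacetylated regions (54.1%), against 34.6% of the intermediate class and 16.1% of the acetylated one. The comparison was not tested, and day 9 and ESC H3K27ac came from different batches.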

How the data were processed

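The authors deposited 1 peak list per library (22 used here; 13 input libraries were not analysed here), in which each peak has the authors' score, their fold enrichment (a ratio) and the −log10 of its p-value and q-value. The submitters' processing notes name cutadapt 1.8.1, Bowtie2 2.2.5, MACS2 2.1.1, deepTools 2.3.6 and build mm10; settings and the control are not given in the sources used here. The lowest deposited −log10 p was 2.00 to 2.09 in each list. No read counts are given, so depth is unknown, and the number of libraries limits the precision. Deposited fold, score and q-value served within 1 list at a time.

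Sharing 1 bp counted as overlap. Distances ran from region midpoints to the starts of the 17273 protein-coding genes in the RefSeq promoter table, and to both ends of the 4354 others (GRCm38.p6, whose coordinates mm10 shares). Score percentiles are ranks within a list. Background came from peaks moved by 1 Mb. Exact permutation tests on 1 value per library (sign changes, or labels of stages) gave p-values, adjusted by Benjamini-Hochberg over 9 tests with a threshold of 0.05; alternatives were judged unadjusted. Named were genes of 7 lists (115 genes) and, for each class, the 3 regions of best mean score rank; 1 listed gene is not reported here by name. Members, lists and tests were chosen with earlier results of these data known. Alternatives were a q-value limit of 0.01, the top 50% of each list, equal numbers of peaks, other overlaps and distances, strata and leaving out libraries. Scripts ran in Python 3.11.15 with numpy 2.4.6, pandas 2.3.3 and scipy 1.17.1, and were tested on simulated lists.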

Additional observations from a re-analysis of the deposited data

Results flagged for a closer look

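The difference in H3K27ac between bound and unbound H3K27ac regions varied between MEF, day 3, day 6 and day 9 by more than between libraries, with an F of 32.0. Over all regions day 9 had the highest mean difference of the 4 stages, but within 2.5 kb of a gene start day 6 had, at 35.8 points against 26.4 on day 9. The day 9 libraries are all in batch EA-3702, and those of MEF, with the lowest difference, are all in batch DG-3458.

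At KLF4 regions more than 2.5 kb from a gene start, the difference between acetylated and unacetylated regions was 12.5 points larger in 2i than on days 3 to 9, while the F between the 4 stages there was 9.68 (exact permutation test, p = 0.0571). In the top of 3 equal groups by KLF4 score, the F of the difference between day 3, day 6, day 9 and 2i was 59.8 (exact permutation test, p = 0.00952, the smallest possible), with means of 12.3, 7.45, 5.42 and 13.4 points. There the day 3 and 2i means were close and day 9 was lowest. The F did not pass in the middle group (1.24, exact permutation test, p = 0.476) or in the lowest (0.661, exact permutation test, p = 0.686).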

How the results depend on the processing

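Of 235 alternatives, 193 kept the direction and the side of the threshold, or stayed within the limit set for values without a test. Of the rest, 36 values moved, 3 tests became stronger, 2 weaker and 1 value reversed. For the overlap shares and the 2i difference the limit was the spread between libraries. For the gene distance difference the limit was 1.53 points, from a 95% interval that took regions as independent units, although regions are not replicates. The naive gene count had no spread between libraries. Labels for gene distance and gene count are thus descriptions. The acetylated share of KLF4 regions (67.7%) was 73.6% with a q-value limit of 0.01, 69.7% with the top 50% of each list, 48.4% with equal numbers of peaks, 40.02% with an overlap of 50% and 27.9% with peaks cut about the midpoint. The bound share of H3K27ac regions (20.4%) was 42.8% with equal numbers, 12.8% with an overlap of 50% and 10.5% with cut peaks. The 2i difference (23.7 points) was 17.4, 19.4, 17.7, 18.6 and 11.1 under the same 5 settings, 19.01 beyond and 15.9 within 2.5 kb of a gene start, and 21.3, 19.9 and 13.4 in 3 equal groups by score, from low to high. The share within 2.5 kb of a gene start differed by 30.1 points between acetylated and unacetylated KLF4 regions, and by 23.8, 22.9 and 24.5 points under the first 3 settings, 26.8 points at 10 kb and 26.7 points with both ends of every gene. The naive count of 15 of 20 genes was 1 of 20 with cut peaks and 8 of 14 for gene starts, with no share over all genes given for these settings. The excess of 2i over days 3 to 9 was 12.5 beyond and -7.36 within 2.5 kb of a gene start, where the direction reversed. The F between KLF4 stages was 59.8 in the top score group, 1.24 in the middle and 0.661 in the lowest. The score difference at KLF4 regions was 2.47 with an overlap of 50% (exact permutation test, p = 0.109). The causes were not tested.

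Without 1 library at a time, the acetylated share was 55.6% and 58.5% (without the KLF4 ESC library of batch EA-2697 or EA-2643) and 71.2% and 72.8% (without H3K27ac ESC library 1 or 2). The 2i difference was, in the same order, 26.3, 26.96, 21.7 and 21.5 points, and the gene distance difference 31.7, 30.999, 28.2 and 27.02 points. In the same order the bound share was 34.5%, 22.5%, 13.5% and 13.6%. The excess of 2i over days 3 to 9 ran from 5.07 to 7.91 points, with 7.22 (exact permutation test, p = 0.0476) without the day 3 library of batch EA-3702. Every other test kept its call in these runs. Permuting within the shared replicate numbers (replicate block, batch DG-3458 alone) gave an F between H3K27ac stages of 22.9 (exact permutation test, p = 0.167, the smallest that 36 labelings allow). Between stages, deviations from the stage means under the same replicate number had correlations from -0.00472 to 0.00506. They were taken on peaks called or not called, so they cannot decide whether the numbers mark shared cultures or preparations. No width result was available with cut peaks.

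Lists end near p 0.01 and depth is unknown, so absent peaks are limits of detection. Classes rest on 2 libraries each, those of KLF4 from different batches, and their lists differ in length.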
